A study of Mus musculus with 20 samples.

Results

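Spi1, Cebpa, Cebpb, Cebpd, Maf, Runx1, Mef2a, Mef2c and Fli1 were followed as the transcription factors that set and keep the myeloid lineage. These 9 genes were chosen by symbol from the 55487 rows of the count table, and all 9 passed the filter on low counts with the 12799 genes tested. RNA-seq was performed on 20 cultures of BV-2, an immortalised microglial cell line from mouse brain, in 4 groups of 5. Young cultures were low-passage control cells and aged cultures were cells of the same line after long-term cultivation. Both were grown from aliquots thawed at the same time, and both were wild type in the labels. Each age was left untreated or given LPS, a bacterial endotoxin, at 100 ng/ml for 6 hours. How many separate long-term cultivations stand behind the aged cultures is not given in the sources used here. Each of the 5 batches named in the labels held 1 culture of every group, and replicate numbers are batch numbers. P-values measure the spread between these cultures of 1 cell line.

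PU.1, the protein of Spi1, is an ETS-family factor that opens chromatin at myeloid genes together with C/EBPα and is needed to form macrophages. C/EBPβ and C/EBPδ are the inflammation-associated members of the C/EBP family, induced by endotoxin and cytokines and known for driving cytokine and acute-phase genes. RUNX1 acts in blood stem cells and early myeloid cells as a heterodimer with CBFβ, MAF restrains self-renewal of mature macrophages, MEF2A and MEF2C occupy microglial enhancers, and FLI1 is a second ETS factor of blood and endothelium. All of these factors act as proteins on DNA, whereas RNA levels alone were measured here.

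Total counts per library were 11371508 to 16829292 with a median of 14370473, and mitochondrial genes held 0.517% to 1.30% of them. The 12 markers of microglia and macrophages summed to 2448 to 4553 CPM (counts scaled to the library size with TMM factors) in every culture. Among these, Cd68, a macrophage lysosomal protein, averaged 894 to 1109 CPM over the groups, while the defining markers of brain microglia Cx3cr1 and P2ry12 averaged at most 1.05 and 1.17 CPM. The summed markers of neurons, astrocytes, oligodendrocytes, fibroblasts, lymphocytes and granulocytes stayed at or below 1.78 CPM in each culture. Of the 5 endothelial markers, 4 had at most 3 counts in any library, and the fifth, Kdr, averaged 75.1 to 103 CPM over the groups. In bulk RNA, fewer cells that express a gene and less RNA per cell cannot be told apart.

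The RefSeq promoter table of GRCm38.p6 held 8 windows, each with 250 bases before and 50 after a start, for 5 of the genes: Cebpa, Cebpb, Runx1, Mef2a and Mef2c. The windows of Cebpb and Cebpa are shown because these paralogues moved in opposite directions under LPS, and that of Mef2a because it holds a MEF2 motif at its own start. Capitals mark TATAAA in the first and second window, the cAMP response element core TGACG or its reverse complement in the first, and the MEF2 motif, CTA and TAG with 4 free bases between them, in the third.
Cebpb (chr2:167688665-167688964, plus strand): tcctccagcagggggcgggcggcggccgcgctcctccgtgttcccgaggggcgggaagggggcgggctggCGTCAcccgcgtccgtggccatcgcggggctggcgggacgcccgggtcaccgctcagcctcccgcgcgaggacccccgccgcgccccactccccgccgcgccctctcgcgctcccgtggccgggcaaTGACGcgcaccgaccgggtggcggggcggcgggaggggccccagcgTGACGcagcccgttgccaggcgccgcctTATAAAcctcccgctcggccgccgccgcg
Cebpa (chr7:35119043-35119342, plus strand): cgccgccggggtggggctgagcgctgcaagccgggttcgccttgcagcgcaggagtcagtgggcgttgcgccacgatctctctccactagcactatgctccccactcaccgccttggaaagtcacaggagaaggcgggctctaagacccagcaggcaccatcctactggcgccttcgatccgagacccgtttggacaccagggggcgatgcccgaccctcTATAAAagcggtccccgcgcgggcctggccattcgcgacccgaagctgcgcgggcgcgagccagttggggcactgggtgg
Mef2a (chr7:67372809-67373108, minus strand): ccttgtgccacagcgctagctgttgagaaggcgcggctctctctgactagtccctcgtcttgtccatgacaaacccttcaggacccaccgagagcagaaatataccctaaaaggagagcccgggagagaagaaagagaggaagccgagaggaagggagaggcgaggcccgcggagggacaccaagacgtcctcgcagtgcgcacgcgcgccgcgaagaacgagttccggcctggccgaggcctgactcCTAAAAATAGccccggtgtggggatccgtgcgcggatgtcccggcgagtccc
The Cebpb window held 3 matches to TGACG on either strand, a motif that 20.8% of all 32851 windows held at least once. A TATAAA, present in 13.6% of all windows on either strand, began 22 bases after the annotated Cebpb start and 30 bases before the Cebpa start. The MEF2 motif at the Mef2a start was present in 3.69% of all windows. The 8 windows held no match to the C/EBP motif TTGCNNAA, found in 10.8% of all windows, or to the NF-κB motif, GGG and TTTCC with 2 free bases between them, found in 1.63%. Such letters are a description of these windows and not evidence of binding.

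Length-scaled levels, in CPM per kb of the union of exons, ranked the factors within each group. Spi1 led in all 4 groups, at 103 ± 2.01 in young and 91.2 ± 6.94 in aged untreated cultures, and at 243 ± 14.4 and 201 ± 10.2 under LPS (SD, n = 5). Cebpa (61.8 ± 9.77) and Cebpb (57.3 ± 3.01) followed in young untreated cultures with overlapping ranges. In aged untreated cultures the order was reversed without overlap, with Cebpb at 55.8 ± 5.34 and Cebpa at 41.5 ± 3.64 CPM per kb. Under LPS, Cebpb stayed next to Spi1 at 162 ± 7.45 in young and 132 ± 9.45 in aged cultures, while Cebpa stood at 16.1 ± 2.198 and 16.9 ± 2.29. Cebpd was the lowest of the 9 in untreated cultures, at 1.79 ± 0.265 and 1.503 ± 0.161 CPM per kb, and Mef2c was the lowest under LPS, at 3.13 ± 0.424 and 3.69 ± 0.535. Neighbours whose ranges overlapped were Maf and Mef2a in both untreated groups and in the aged LPS group, Cebpa and Fli1 under LPS in both ages, Fli1 with Cebpd and Cebpd with Maf in the young LPS group, and Maf with Runx1 in the aged LPS group. Ranking by the longest annotated transcript instead of the union of exons exchanged places among Fli1, Mef2c, Maf, Mef2a, Runx1, Cebpd and, in young LPS-treated cultures, Cebpa, but left Spi1 first in every group.

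**Figure D1:**
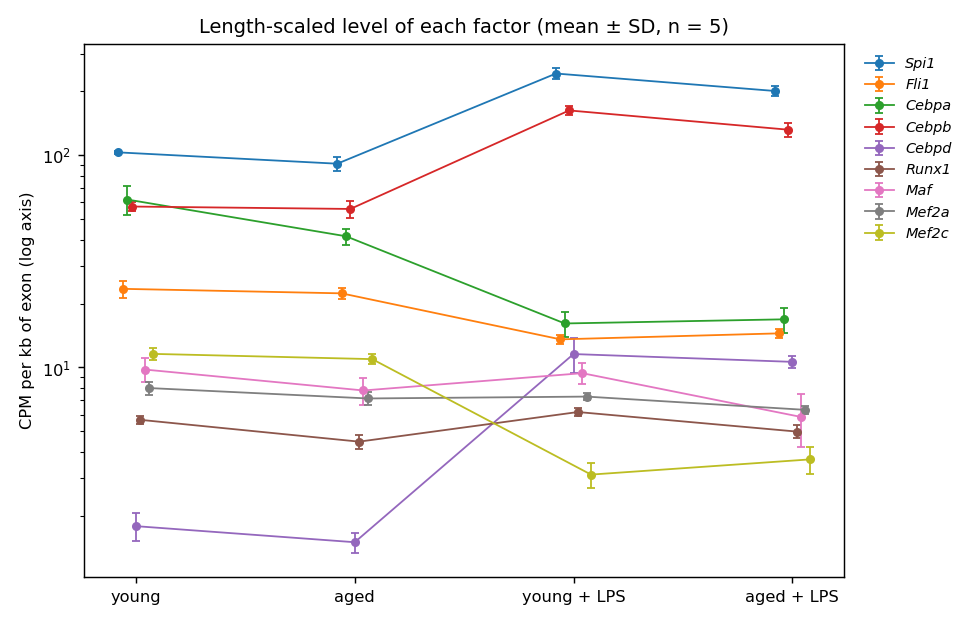
Length-scaled level of the 9 factors, as CPM per kb of exon on a log axis, in the 4 groups (points are means, bars SD, n = 5 cultures). Spi1 lies above the other factors in all 4 groups, Cebpb joins it under LPS, and Cebpa and Mef2c drop while Cebpd rises from 1.79 to 11.6 in young cultures.

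In young cultures, 6 hours of LPS raised Spi1, Cebpb and Cebpd and lowered Cebpa, Mef2c, Fli1 and, by a small amount, Mef2a. Thus 3 of 9 factors were called higher, against 31.2% of all genes tested, and 4 were called lower, against 33.5%. In aged cultures 4 of 9 were called higher, against 27.5% of all genes, and 5 lower, against 26.9%, the additional calls being Runx1 and Maf. The median log2 fold change of the 9 factors was -0.06 in young and -0.18 in aged cultures, beside -0.01 and 5.1e-04 over all genes. The test throughout was the quasi-likelihood F-test of edgeR with Benjamini-Hochberg adjustment over the 12799 genes, and a gene is called where the adjusted p is below 0.05.

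**Figure D2:**
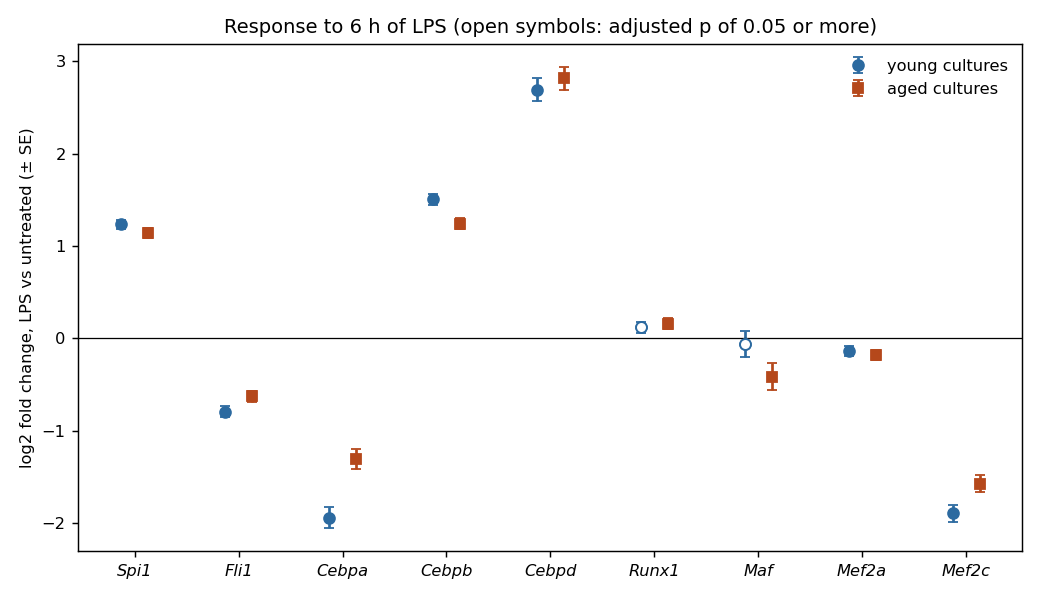
Log2 fold change of each factor between LPS-treated and untreated cultures, in young (circles) and aged cultures (squares), with bars for the SE and open symbols where the adjusted p is 0.05 or more. Cebpd has the highest value at either age (2.69 and 2.81), Cebpa the lowest in young (-1.94) and Mef2c the lowest in aged cultures (-1.57).

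Spi1, on chromosome 2 (91082390-91115756, plus strand), encodes PU.1. Its level was 282, 281, 278, 269 and 279.9 CPM in young untreated batches 1 to 5 and 664, 682, 685, 589 and 649 CPM in the same batches under LPS. Every LPS-treated culture lay above every untreated one, and the log2 fold change was 1.23 ± 0.05 (SE, adjusted p = 4.90e-15, edgeR), a 2.35-fold rise. In aged cultures Spi1 was at 274, 247, 226, 231 and 250.3 CPM without and at 543, 557, 559.5, 493 and 552 CPM with LPS. The aged response was 1.14 ± 0.05 (adjusted p = 3.69e-14, edgeR) and again without overlap. The responses of both ages differed by -0.09 ± 0.07 (adjusted p = 0.548, edgeR), with an aged response below the young one in 4 of 5 batches.

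Cebpb, a gene of 1504 exon bases on chromosome 2 (167688915-167690418, plus strand), was at 81.4, 84.4, 90.4, 91.6 and 83.2 CPM in young untreated and at 241, 251, 255, 247 and 226 CPM in young LPS-treated batches 1 to 5. The groups were far apart, with a log2 fold change of 1.503 ± 0.063 (adjusted p = 2.76e-15, edgeR). In aged cultures it rose from 88.2, 94.4, 76.2, 85.3 and 75.7 CPM to 217, 205, 191, 179.9 and 199 CPM, a log2 fold change of 1.24 ± 0.06 (adjusted p = 1.22e-13, edgeR). All 5 aged LPS-treated cultures lay below all 5 young ones, whereas the untreated groups overlapped. The response was smaller in the aged culture of every batch, by 0.05 to 0.45 log2 units. Its difference of -0.26 ± 0.09 was not called by edgeR (adjusted p = 0.0788) and was called by DESeq2 (adjusted p = 0.0326). Exons of Cebpb share 312 bases with Tmem189 on the opposite strand, and Tmem189 rose by 0.95 in young and 1.03 in aged cultures on the log2 scale. The strand setting of the counting is not given in the sources used here, and the part of Tmem189 reads in the Cebpb counts was not tested.

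Cebpd, which encodes C/EBPδ and lies on chromosome 16 (15887286-15891031, plus strand), showed the largest rise of the 9 factors. It was scarce without LPS, at 5.52, 6.46, 8.15, 6.26 and 7.12 CPM in young and 5.37, 4.98, 6.34, 6.21 and 5.26 CPM in aged batches 1 to 5. With LPS the values were 31.9, 49.3, 50.6, 38.0 and 46.9 CPM in young and 39.2, 44.0, 37.4, 40.1 and 38.4 CPM in aged cultures. The LPS-treated cultures of both ages overlapped each other but no untreated culture, and the young values spread most widely (SD 8.07 against 2.53 CPM). The log2 fold changes were 2.69 ± 0.12 in young (adjusted p = 8.37e-15, edgeR) and 2.81 ± 0.12 in aged cultures (adjusted p = 1.00e-14, edgeR). Among all genes, 3.20% in young and 2.13% in aged cultures had a larger absolute change. Cebpd shares 562 exon bases with Spidr on the opposite strand, which had a log2 fold change of -0.39 in young cultures.

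Cebpa, the C/EBP member that directs progenitors into the granulocyte and macrophage line, lies on chromosome 7 (35119293-35121928, plus strand) and fell under LPS. Its level was 198, 171, 169, 144 and 132 CPM in young untreated batches 1 to 5 and 32.99, 46.0, 43.8, 48.0 and 41.8 CPM in the same batches under LPS. Aged cultures held 108, 118, 119, 107 and 95.6 CPM without and 42.8, 52.2, 36.4, 48.3 and 42.5 CPM with LPS. Untreated aged cultures thus lay below all untreated young ones, while LPS-treated cultures of both ages shared one range. The log2 fold change was -1.94 ± 0.11 in young (adjusted p = 7.14e-13, edgeR) and -1.30 ± 0.11 in aged cultures (adjusted p = 1.01e-09, edgeR). Cebpa was the only one of the 9 factors whose response differed between the ages in edgeR, by 0.63 ± 0.15 (adjusted p = 0.0146), where 6.39% of all genes were called in either direction. The decrease was smaller in the aged culture of all 5 batches, by 0.24 to 1.26 log2 units. The call was lost without replicate 1 (0.49, adjusted p = 0.0574) and without replicate 2 (0.61, adjusted p = 0.106).

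The opposite courses of Cebpa and Cebpb changed the make-up of the C/EBP family. Of the summed CPM per kb of Cebpa, Cebpb, Cebpd, Cebpe and Cebpg, Cebpa held 45.3% ± 4.32 in young and 37.2% ± 2.10 in aged untreated cultures, and 7.95% ± 0.897 and 9.79% ± 1.30 under LPS (SD, n = 5). Cebpb held 42.4% ± 3.69 and 49.9% ± 2.48 without LPS and 80.2% ± 1.69 and 76.5% ± 1.93 with it. Cebpd never held more than 6.59% in any culture. Within single cultures the mean log2 ratio of Cebpb to Cebpa per kb was -0.10 ± 0.26 in young and 0.43 ± 0.15 in aged untreated cultures, whose ranges did not overlap. Under LPS it was 3.34 ± 0.20 in young and 2.98 ± 0.22 in aged cultures, corresponding to 10.2-fold and 7.87-fold more Cebpb, and these ranges overlapped. A ratio within a culture does not depend on library scaling, and no test was made on it.

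**Figure D3:**
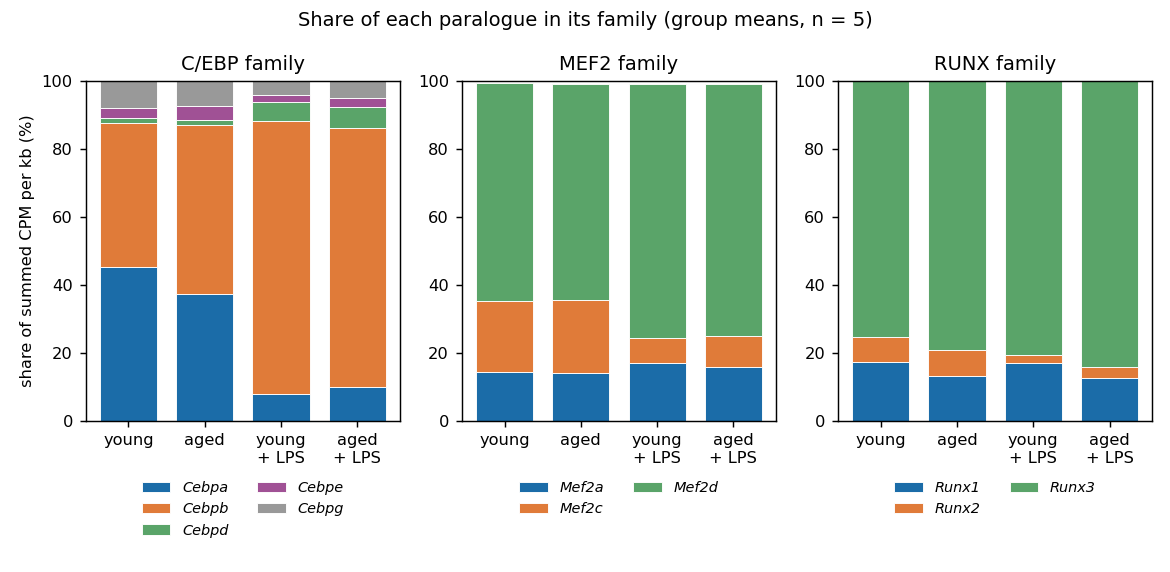
Share of each paralogue in the summed CPM per kb of its family in the 4 groups (stacked bars are means of 5 cultures, paralogues under 1% in every group are not drawn). Cebpa goes from 45.3% to 7.95% with LPS in young cultures and Mef2c from 20.8% to 7.30%. Mef2d and Runx3 hold most of their families in all 4 groups with the union of exons as length. With the longest transcript, Mef2d holds 44.15% in young and 43.38% in aged untreated cultures.

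Mef2c and Mef2a encode MADS-box factors of microglial enhancers, and LPS separated them. Mef2c (chromosome 13, 83504034-83667080, plus strand) was at 173, 193, 198, 173 and 174 CPM in young untreated and 54.3, 50.4, 56.5, 43.4 and 41.3 CPM in young LPS-treated batches 1 to 5. In aged batches it was at 164, 179.8, 182, 161 and 174 CPM without and 47.0, 68.7, 60.9, 60.9 and 52.4 CPM with LPS. No treated culture reached an untreated one at either age. The log2 fold change was -1.89 ± 0.09 in young (adjusted p = 3.61e-14, edgeR) and -1.57 ± 0.09 in aged cultures (adjusted p = 1.24e-12, edgeR). Their difference of 0.32 ± 0.13 was not called by edgeR (adjusted p = 0.149), and it was called by DESeq2 with the replicate block alone (adjusted p = 0.0444).

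Mef2a (chromosome 7, 67231163-67372858, minus strand) ranged from 108 to 126 CPM in young untreated cultures and from 104 to 114 under LPS. In aged cultures the ranges were 95.7 to 116 and 87.3 to 98.2 CPM, so treated and untreated cultures overlapped at both ages. The change was small, at -0.13 ± 0.06 in young (adjusted p = 0.0403, edgeR) and -0.18 ± 0.06 in aged cultures (adjusted p = 0.00999, edgeR), and in young cultures DESeq2 did not call it (adjusted p = 0.0846). The mean log2 ratio of Mef2c to Mef2a per kb accordingly went from 0.54 ± 0.07 to -1.23 ± 0.18 in young and from 0.62 ± 0.07 to -0.79 ± 0.22 in aged cultures. Mef2d, their more abundant paralogue, held 63.6% to 74.8% of the MEF2 sum in the group means with the union of exons as length. With the longest transcript it held 44.15% and 43.38% in young and aged untreated cultures and 56.29% and 55.58% under LPS. With LPS, Mef2d fell by 0.17 in young cultures on the log2 scale (adjusted p = 0.0144, edgeR), while the aged value of -0.12 was not called (adjusted p = 0.0781, edgeR). Hdac9 and Hdac5 encode class IIa histone deacetylases, which bind MEF2 proteins, and were named as the largest decreases of a list given further on. Hdac9 changed by -1.82 and -2.12 and Hdac5 by -1.50 and -0.98 in young and aged cultures, all called by edgeR. Of the other members of the class, named after their values were seen, Hdac4 changed by -0.80 and -0.43 (both called), and Hdac7 had values of -0.67 and -0.34 that were not called (adjusted p = 0.240 and 0.641, edgeR).

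Fli1 (chromosome 9, 32422204-32542861, minus strand), an ETS factor like PU.1, took the opposite direction to Spi1. Untreated young cultures held 69.3, 81.1, 84.8, 88.9 and 84.9 CPM and treated ones 48.5, 45.7, 46.8, 44.98 and 50.5 CPM. Untreated aged cultures held 80.1, 77.0, 73.1, 75.2 and 84.1 CPM and treated ones 51.3, 50.3, 46.8, 53.0 and 51.1 CPM. Treated and untreated cultures did not overlap, with log2 fold changes of -0.79 ± 0.06 in young (adjusted p = 1.01e-10, edgeR) and -0.63 ± 0.06 in aged cultures (adjusted p = 8.29e-09, edgeR). The 2 ages overlapped under either treatment. Ets2, an ETS factor downstream of MAP kinase signalling, rose by 1.75 and 1.67 in young and aged cultures.

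Runx1 and Maf were not called with LPS in young cultures and were called in aged ones. Runx1 (chromosome 16, 92601466-92826149, minus strand) had a log2 fold change of 0.12 ± 0.06 in young (adjusted p = 0.0735, edgeR) and 0.16 ± 0.06 in aged cultures (adjusted p = 0.0263, edgeR), and scaling by library size alone turned these values to -0.10 and -0.0019, with the median of all genes at -0.23 and -0.16. Without replicate 3 the aged value was 0.08 (adjusted p = 0.321). Maf (chromosome 8, 115682942-115707794, minus strand) gave -0.06 ± 0.14 in young (adjusted p = 0.730, edgeR) and -0.41 ± 0.14 in aged cultures (adjusted p = 0.0177, edgeR), with batch differences from -1.01 to 0.19. Without replicate 1, 2 or 5 the aged value was -0.29, -0.43 and -0.35 and was not called (adjusted p = 0.0802, 0.0517 and 0.0898, edgeR), and without replicate 3 it was -0.61 (adjusted p = 8.9e-04, edgeR). Among the paralogues of Runx1, Runx3 held 75.5% to 84.2% of the RUNX sum in the group means, and Runx2 fell with LPS by 1.48 and 0.99 in young and aged cultures.

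**Figure D4:**
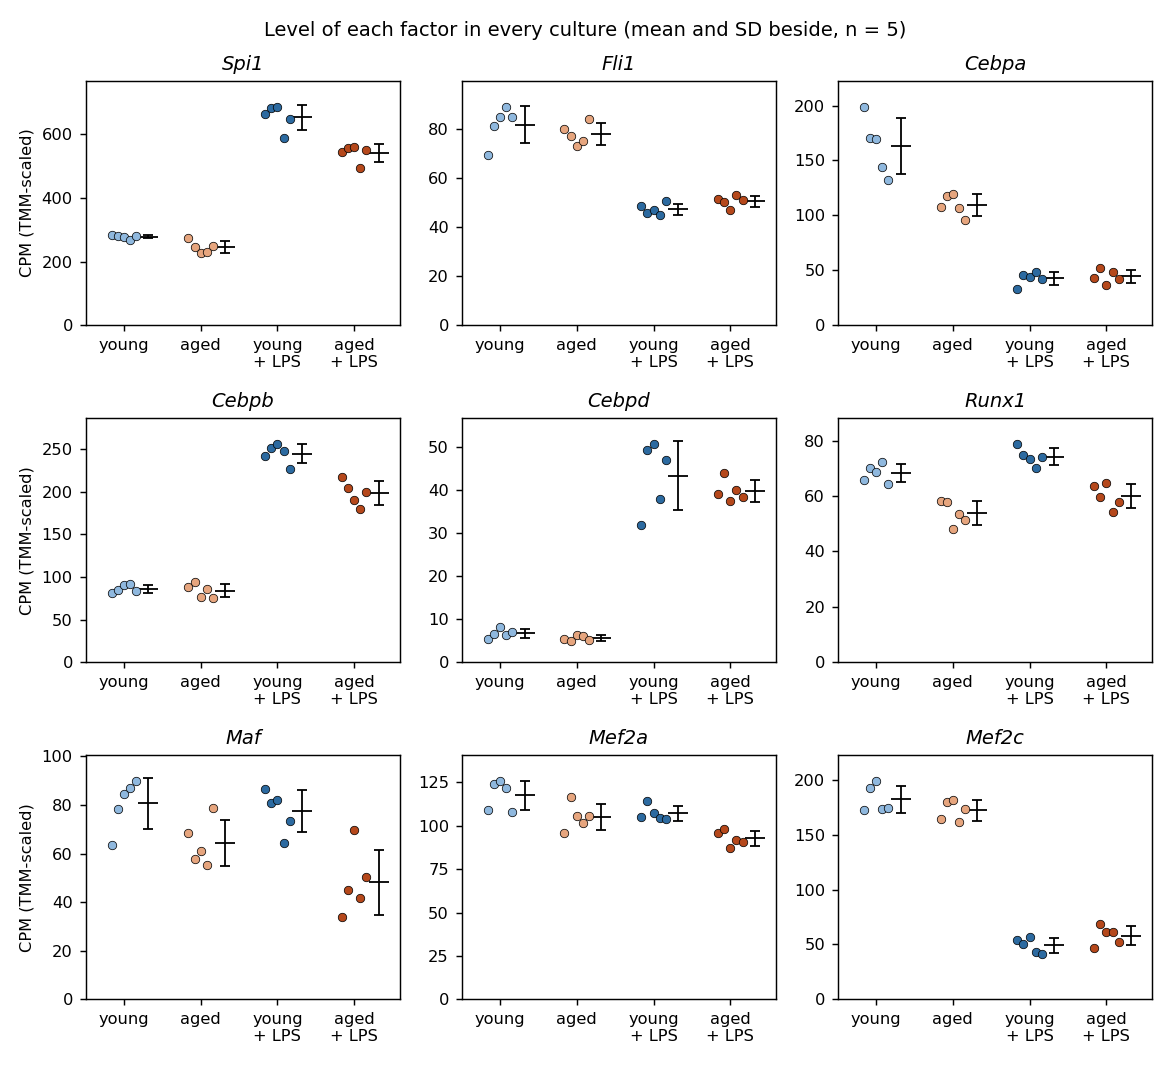
Level of each factor in CPM (TMM-scaled, axes from 0) in every culture of the 4 groups, with the mean and SD of 5 cultures beside the points, which stand in batch order. LPS separates the cultures for Spi1, Cebpa, Cebpb, Cebpd, Mef2c and Fli1 at both ages, whereas Runx1, Maf and Mef2a overlap. Of all genes, LPS raised 31.2% and lowered 33.5% in young and raised 27.5% and lowered 26.9% in aged cultures. The share of all genes without overlap was not computed.

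Without LPS, all 9 factors had a log2 fold change below 0 between aged and young cultures, as did 53.5% of all genes, and the median of the 9 was -0.18 beside -0.01 over all genes. Of the 12 markers of microglia and macrophages, 11 also had a value below 0, with a median of -0.41 and 3 called lower, and their summed level was 2934 to 4315 CPM in young and 2448 to 3723 CPM in aged untreated cultures. Under LPS, 11 of the 12 were again below 0, with a median of -0.41, beside 48.5% and 0.01 over all genes. Of the 12, 5 were called lower and 1 higher under LPS, against 15.0% and 14.0% of all genes. The sums under LPS were 3140 to 4553 CPM in young and 2619 to 3939 CPM in aged cultures. Kdr was lower in aged cultures as well, at -0.45 without and -0.21 with LPS (adjusted p = 1.01e-04 and 0.0172, edgeR). The part of these markers in the age differences of the factors was not tested. The 3 factors called were Cebpa, Runx1 and Spi1, each lower in aged cultures, where 7.81% of all genes were called lower and 3.71% higher. Cebpa fell most, by 0.57 ± 0.11 on the log2 scale (adjusted p = 0.00104, edgeR), in all 5 batches and by 0.43 to 0.88 within them. Runx1 was at 65.7, 70.1, 68.6, 72.1 and 64.2 CPM in young and 58.3, 57.8, 48.2, 53.3 and 51.3 CPM in aged untreated batches 1 to 5. These groups did not overlap, and Runx1 fell by 0.34 ± 0.06 on the log2 scale (adjusted p = 5.64e-04, edgeR).

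Spi1 was lower in the aged culture of each untreated batch, by 0.04 to 0.30 log2 units, although the aged culture of batch 1, at 274 CPM, lay within the young range of 269 to 282. Its young cultures had an SD of 5.42 CPM and its aged cultures one of 18.7 CPM. The log2 fold change of -0.18 ± 0.05 (adjusted p = 0.0312, edgeR) was called, and with the replicate block the adjusted p was 0.00631. Without replicate 2, 3 or 5 the values were -0.18, -0.15 and -0.18 and were not called (adjusted p = 0.147, 0.135 and 0.0970, edgeR). Mef2a, at -0.16 ± 0.06, was not called without the replicate block (adjusted p = 0.0599, edgeR) and was called with it (adjusted p = 0.0186, edgeR), where 11.2% of all genes were called lower. The other factors not called were Maf at -0.33 ± 0.14 (adjusted p = 0.135), Cebpd at -0.25 ± 0.14 (0.264), Mef2c at -0.08 ± 0.09 (0.612), Fli1 at -0.07 ± 0.06 (0.491) and Cebpb at -0.04 ± 0.06 (0.764), all by edgeR. Maf had 4 of its 5 batches lower in aged cells and the widest spread between batches, from -0.65 to 0.10.

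**Figure D5:**
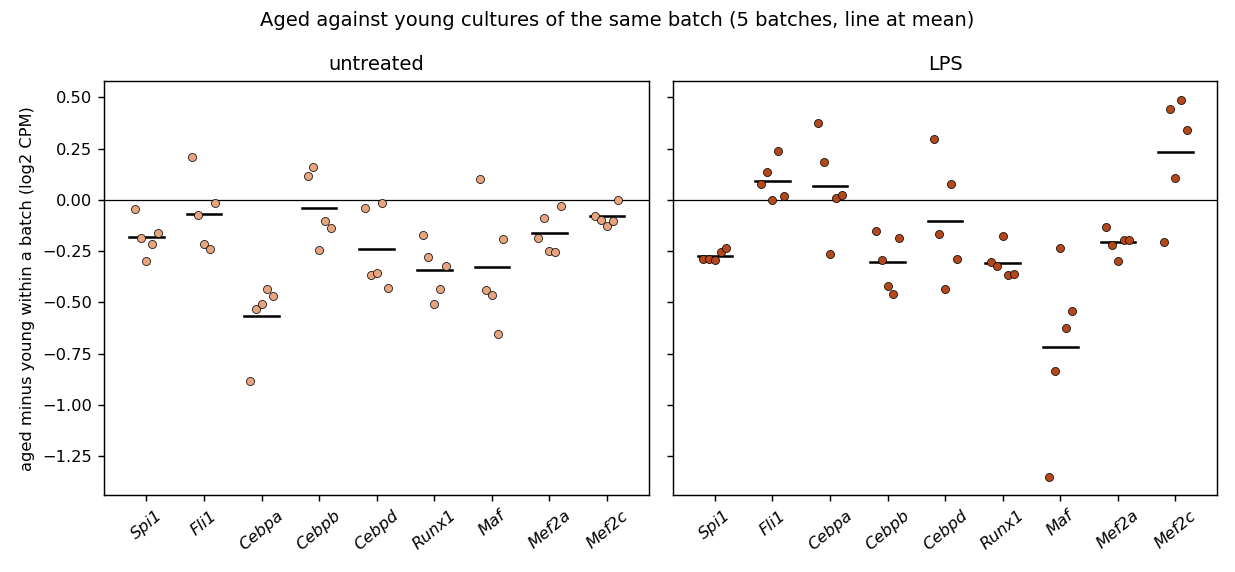
Difference of log2 CPM between the aged and the young culture of the same batch, for untreated (left) and LPS-treated cultures (right), 1 point per batch and a line at the mean of 5 batches. Without LPS the 5 points of Spi1, Cebpa, Cebpd, Runx1, Mef2a and Mef2c lie below 0, that of Mef2c in batch 5 at -7.4e-04. Of these, Cebpd, Mef2a and Mef2c were not called by edgeR. Under LPS the 5 points of Spi1, Cebpb, Runx1, Maf and Mef2a lie below 0, while Cebpa ranges from -0.27 to 0.38. The share of all genes with 5 points below 0 was not computed.

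Under LPS, Spi1, Cebpb, Maf, Runx1 and Mef2a were called lower in aged cultures, 5 of 9 factors against 15.0% of all genes called lower and 14.0% higher, and the median of the 9 was -0.21 beside 0.01 over all genes. Each of these 5 was lower in the aged culture of all 5 batches, which are the same libraries that gave the calls and no separate support. Spi1 fell by 0.27 ± 0.05 (adjusted p = 4.02e-04, edgeR) and Cebpb by 0.30 ± 0.06 (adjusted p = 6.58e-04, edgeR) on the log2 scale, both without overlap of the groups. Runx1 was at 78.6, 74.8, 73.3, 70.0 and 74.2 CPM in young and at 63.6, 59.7, 64.8, 54.3 and 57.7 CPM in aged LPS-treated batches 1 to 5. It fell by 0.30 ± 0.06 (adjusted p = 4.23e-04, edgeR) and did not overlap, so that its age difference was present with and without LPS. The Runx1 responses to LPS differed between the ages by 0.04 ± 0.08 (adjusted p = 0.875, edgeR).

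Maf had the largest age difference under LPS. Its values were 86.6, 80.8, 82.1, 64.4 and 73.5 CPM in young and 33.9, 45.2, 69.7, 41.7 and 50.5 CPM in aged LPS-treated batches 1 to 5. The aged culture of batch 3 lay within the young range and the other 4 below it, and the log2 fold change was -0.68 ± 0.14 (adjusted p = 9.02e-04, edgeR), between -0.83 and -0.53 with any 1 replicate left out. Mef2a fell by 0.21 ± 0.06 (adjusted p = 0.00766, edgeR) without overlap, a call that was lost with scaling by library size alone (-0.13, adjusted p = 0.0924). Mef2c was the one factor with a higher value in aged cells that came near the threshold, at 0.24 ± 0.09 (adjusted p = 0.0578, edgeR). With the replicate block it was called (adjusted p = 0.0206, edgeR), where 16.3% of all genes were called higher, and 4 of 5 batches were higher. Fli1 at 0.09 ± 0.06 (adjusted p = 0.279), Cebpa at 0.06 ± 0.11 (0.745) and Cebpd at -0.13 ± 0.10 (0.401) were not called by edgeR.

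Paralogues of the 9 factors were read from a list of 21 genes, of which 14 were tested and 5 had at most 3 counts in every library. Without LPS, 3 of the 14 were called, all lower in aged cultures (7.81% of all genes), with a median of -0.09 beside -0.01 over all genes. Of these, Cebpg, a C/EBP member without an activation domain, was at -0.40 ± 0.07 (adjusted p = 8.49e-04, edgeR), and Elf4, an ETS factor, was at -0.17 ± 0.05 (adjusted p = 0.0420, edgeR). LPS raised 8 and lowered 4 of the 14 in young cultures and raised 8 and lowered 2 in aged cultures. Of all genes, 31.2% were raised and 33.5% lowered in young cultures and 27.5% and 26.9% in aged cultures, so that the lowered paralogues in young cultures, 4 of 14, were near the background. The largest increase was that of Maff, a small MAF protein without an activation domain, at 3.28 in young and 3.17 in aged cultures. Mafk, another small MAF, rose by 1.64 in young and by 1.19 in aged cultures, a difference of -0.45 ± 0.09 (adjusted p = 0.00336, edgeR).

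Partners and regulators of the factors filled a list of 20 genes, 15 of them tested. Without LPS a single one was called between the ages, where 7.81% of all genes were called lower and 3.71% higher. This count was near the background. The gene was Irf8, the interferon regulatory factor that binds DNA with PU.1, at -0.26 ± 0.06 (adjusted p = 0.00614, edgeR). LPS raised 7 and lowered 6 of the 15 at either age, with medians of 0.07 in young and 0.24 in aged cultures beside -0.01 and 5.1e-04 over all genes. The shares of all genes raised and lowered were 31.2% and 33.5% in young and 27.5% and 26.9% in aged cultures. Cbfb, the partner of the RUNX proteins, fell by 0.36 in young and 0.18 in aged cultures, and Irf8 fell by 0.33 and 0.20. Trib1, whose protein promotes degradation of C/EBPα, rose by 0.31 and 0.34 (adjusted p = 0.0384 and 0.0273, edgeR). Ddit3, the C/EBP-related stress factor CHOP, rose by 1.81 in young and 1.84 in aged cultures. Under LPS, 3 of the 15 were called higher and 3 lower in aged cultures, against 14.0% and 15.0% of all genes, among them Cop1, a ubiquitin ligase that acts with TRIB proteins, at -0.27 ± 0.06.

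Other myeloid and microglial factors were read from a list of 24 genes, 20 of them tested. LPS lowered 11 and raised 6 of the 20 in young cultures and lowered 10 and raised 6 in aged cultures, with medians of -0.54 and -0.27 beside -0.01 and 5.1e-04 over all genes. Of all genes, 33.5% were lowered and 31.2% raised in young and 26.9% and 27.5% in aged cultures, so that the raised factors, 6 of 20, were near the background. Without LPS, 3 of the 20 were called between the ages, all lower in aged cultures, where 7.81% of all genes were called lower. The median was -0.03 beside -0.01 over all genes. Under LPS, 6 of the 20 were called higher and 5 lower in aged cultures, against 14.0% and 15.0% of all genes. The median was then 0.13 beside 0.01 over all genes. Tfec, a macrophage factor of the MITF family, rose by 1.78 and 1.71 with LPS, and its aged minus young value was -1.37 without and -1.44 with LPS. It averaged 10.2 ± 1.10, 3.93 ± 0.779, 35.0 ± 3.77 and 12.9 ± 1.43 CPM in young, aged, young LPS and aged LPS cultures (SD, n = 5). Rxra, a nuclear receptor partner, fell by 2.02 in young and 1.27 in aged cultures. Lyl1, a blood-lineage bHLH factor, was named for its decrease of 1.45 in aged cultures, which does not make the decrease particular to them. Under LPS, Lyl1 was 0.68 and Nr4a1, a nuclear receptor, 0.80 higher in aged than in young cultures (adjusted p = 4.3e-05 and 0.0149, edgeR).

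Genes known to be bound by PU.1 in macrophages filled a list of 12, all tested, of which Csf1r and Itgam also stand among the markers of microglia and macrophages. Between the ages, 6 of the 12 were called without LPS, against 7.81% of all genes called lower, and 8 with LPS, against 15.0%, every one lower in aged cells, while 6 and 4 were not called. The medians were -0.62 and -0.61 beside -0.01 and 0.01 over all genes. Cybb, the catalytic subunit of the phagocyte oxidase, fell by 0.86 ± 0.09 without LPS (adjusted p = 1.11e-06, edgeR), and Fcgr3, an Fc receptor, fell by 0.73 ± 0.15 (adjusted p = 0.00325, edgeR). Csf1r, the receptor for M-CSF, fell by 0.44 ± 0.11 (adjusted p = 0.0132, edgeR) and 0.38 ± 0.11 (adjusted p = 0.0123, edgeR) in aged cells without and with LPS, and its LPS response was 0.0041 in young and 0.06 in aged cultures. Itgam, an integrin of myeloid cells, had values of -0.66 ± 0.30 and -0.51 ± 0.31 between the ages that were not called (adjusted p = 0.166 and 0.233, edgeR). LPS raised 4 and lowered 2 of the 12 in young cultures (31.2% and 33.5% of all genes) and raised 3 and lowered 3 in aged cultures (27.5% and 26.9%). With LPS, Cybb rose by 2.80 in young and 3.04 in aged cultures and Tlr4, the LPS receptor, fell by 1.03 and 0.78.

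Genes known as C/EBP targets in inflammation filled a list of 10, of which 8 were tested. LPS raised 7 of the 8 at either age, against 31.2% of all genes in young and 27.5% in aged cultures, and the exception was Csf3r, the G-CSF receptor, with 0.03 in young and 0.09 in aged cultures. The list was chosen for inflammation and with earlier results of these data known, so this count is no evidence about C/EBP targets. Between the ages, 4 of the 8 without LPS and 7 of the 8 with LPS were called, all lower in aged cells, against 7.81% and 15.0% of all genes called lower. Csf3r fell by 1.05 ± 0.12 without LPS (adjusted p = 6.81e-06, edgeR) and by 0.99 ± 0.13 with LPS (adjusted p = 4.87e-06, edgeR). Nos2, the inducible nitric oxide synthase, averaged 299.6 ± 120 CPM in young and 102 ± 66.7 CPM in aged LPS-treated cultures (SD, n = 5). Csf3, which encodes G-CSF, had no count in any aged untreated library and 54.3 ± 12.6 CPM in aged LPS-treated cultures, at least 292-fold above the floor of 3 counts per library. Because 4 of the 8 genes lay at or under that floor in aged untreated cultures, the aged median LPS response of the list has only a lower limit. With those genes at their bound it was at least 5.47, beside 6.33 in young cultures, where no gene was at a bound. These medians therefore do not show which age responded more strongly.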

How the data were processed

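RNA-seq of 20 BV-2 cultures was analysed from the deposited raw counts per gene. Stranded libraries from mRNA were sequenced by the authors, and the submitters' processing notes name FastQC 0.11.8, STAR 2.6.1d, featureCounts 1.5.1 and DESeq2. Strand and overlap settings of the counting are not given in the sources used here. Gene positions and exon lengths are those of GENCODE for GRCm38, and promoter windows those of RefSeq.

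The 9 factors and all gene lists were chosen with earlier results of these data known. Groups and batches came from the labels. Counts were tested with edgeR 4.0.16 (limma 3.58.1, R 4.3.3) in 1 model of all 20 libraries and 4 groups, with TMM, filterByExpr and Benjamini-Hochberg adjustment over 12799 genes. An adjusted p below 0.05 is a call. The SE was taken from the log2 fold change and its F statistic, and CPM are TMM-scaled. Levels between genes were compared per kb. In each list and comparison the 2 largest called changes in each direction whose mean log2 CPM was at least 1 could be named, and Irf8, Cbfb, Trib1, Mef2d, Csf1r, Itgam and Csf3r always. A gene of the paralogue list and a ratio that needs it are not reported here.

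Because same-numbered cultures share a batch in the labels, the replicate block pairs them. Their deviations from group means correlated across genes by 0.146 on average (-0.2145 to 0.394, 30 pairs). Libraries of a group differed by more than counting noise, with a chi-square of 2.42 to 26.8 per degree of freedom in 40 pairs. A floor of 3 counts was 0.178 to 0.264 CPM and covers counting error only.

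On simulated counts with 200 changed genes for aged against young untreated cultures, edgeR recovered 195 with 2 false calls among 12644 genes. The block in edgeR recovered 194 with 3, and DESeq2 193 with 12 among 12799. These counts were drawn from the spread that edgeR estimated and held no batch effect. The changed genes had a median absolute log2 fold change of 0.99 in edgeR. Recovery of the smaller age differences of the factors was not tested. Alternatives were DESeq2 1.42.0, the block in both tools, other scalings, filters and a threshold of 0.01, only the groups compared, the longest transcript as length, and each replicate left out. Python 3.11.15 (pandas 2.3.3, numpy 2.4.6, matplotlib 3.10.9) was used for tables and plots.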

Additional observations from a re-analysis of the deposited data

Results flagged for a closer look

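Of the 36 sets of 5 cultures examined for the 9 factors, 2 held a culture apart from the rest by Dixon's criterion, and chance alone sets apart about 1 in 20 such sets. Both concern Spi1 in batch 4. The young untreated culture stood at 269 CPM, where the others lay between 278 and 282 CPM, and the aged LPS-treated culture stood at 493 CPM, where the others lay between 543 and 559.5 CPM.

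The LPS response of 8 named genes differed between aged and young cultures in edgeR's test of the difference (aged minus young, log2), where 6.39% of all genes were called. Cebpa was the one factor among the 9, and the other 7 genes were named because they had the largest called differences of their lists, so their number says nothing about the lists. Cebpa differed by 0.63 (adjusted p = 0.0146), with responses of -1.94 in young and -1.30 in aged cultures. Its paralogue Cebpg differed by 0.42 (adjusted p = 0.0149), with -0.32 in young and 0.09 in aged cultures. Mafk differed by -0.45 (adjusted p = 0.00336). Hdac5 differed by 0.52 (adjusted p = 0.0105), Rxra by 0.75 (adjusted p = 0.0117) and Nr4a1, an immediate early nuclear receptor, by 1.06 (adjusted p = 0.0372), each with a weaker decrease in aged cultures. Saa3, an acute-phase protein, differed by 1.67 (adjusted p = 0.0450), with 8.77 ± 7.22 CPM in young and 1.81 ± 0.685 CPM in aged untreated cultures and 606 ± 138 and 403 ± 59.2 CPM under LPS (SD, n = 5). The value of 6.09 for Csf3 (adjusted p = 0.00718) rests on aged untreated libraries without a count, depends on the prior count of the fit and gives no size of the difference.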

How the results depend on the processing

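For the 9 factors in 5 comparisons, the alternatives other than left-out replicates kept direction and call for 371 values, added a call for 10, removed one for 12 and turned the sign of 3. Leaving out a replicate kept 204, added 3, removed 13 and turned 5. Signs turned for Runx1 under scaling by library size alone (-0.0998 and -0.00185 for LPS in young and aged cultures), for Mef2a there in the difference of responses (0.0169), for Cebpb between untreated ages without replicate 3 (0.0141, range over left-out replicates -0.0909 to 0.0141), for Maf with LPS in young cultures without replicates 4 and 5 (0.0305 and 7.8e-04, range -0.186 to 0.0305), for Cebpa between ages under LPS without replicate 1 (-3.2e-04, range up to 0.132) and for Runx1 in the difference without replicate 3 (-0.0389, range up to 0.0846). None of these values was called in the alternative, and the cause was not tested. With the replicate block in edgeR the number of factors called was 4, 7, 9, 6 and 1 in the 5 comparisons, against 3, 7, 9, 5 and 1 without it, the additional calls being Mef2a and Mef2c as given above. Factors whose LPS response differed between ages numbered 2 with DESeq2, 3 with the replicate block in DESeq2, 0 at a threshold of 0.01 in edgeR, and 0 to 1 in edgeR with a replicate left out (4 and 2 at an unadjusted p below 0.05 without replicates 1 and 2). With the longest transcript as length, the Mef2c to Mef2a ratio was 0.45 and 0.53 in young and aged untreated cultures. Leaving out replicates for the ratios was chosen after seeing the data and moved none of them by more than its SD. A mean of 5 values cannot move that far when 1 is left out, so this is no check of stability. Cebpd, at 74 to 135 counts per untreated library, is the least precise of the 9 factors by counting.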

Other observations

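For the factors whose group means spanned at least 1 log2 unit, the genes with the most similar course over the 4 group means were read off, each course centred on its own mean, with the root mean square difference in log2 CPM as the measure of likeness. Over 4 groups many courses are close, so these values are a description. Spi1 (span 1.41) was nearest to Dubr (0.01) and AC163635.1 (0.02), Cebpb (span 1.54) to Rnf149 (0.02) and Hk3 (0.02), and Cebpd (span 2.90) to Slc11a2 (0.02) and Zc3h12c (0.06). Cebpa (span 1.93) was nearest to Gm38335 (0.06) and Zfp704 (0.07), and Mef2c (span 1.89) to Tspan32 (0.07) and Slc37a2 (0.07). Maf, Runx1, Mef2a and Fli1 spanned less than 1 log2 unit. The mean log2 CPM of Slc11a2, a metal ion transporter, was 6.18, 5.94, 8.88 and 8.71 in young, aged, young LPS and aged LPS cultures.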
